A study of Mus musculus with 14 samples.

Results

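The genes described here make cholesterol and fatty acids or control that synthesis. They form a list of 33 genes chosen by function: enzymes of the mevalonate pathway, enzymes that turn farnesyl diphosphate into cholesterol, regulators and a carrier of sterols, and enzymes of fatty acid synthesis and desaturation. Of these, 30 genes had a probe that carried a single gene name, out of 15099 such genes on the array. They were read by 33 probes of 23232, because Acaca had 3 probes and Srebf2 had 2. Acat2, Hmgcs1 and Scap were not analysed here.

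RNA came from stably modified lines of MIN6, a mouse insulinoma line used as a model of the insulin-secreting beta cell. All lines were derived at passage 24, selected with G418, and kept for 4 days in 5 mM glucose before RNA extraction. Sir2OE2 (4 arrays) and Sir2OE1 (3 arrays) carried Sirt1, an NAD-dependent protein deacetylase, in the pBabe retrovirus with neomycin resistance, and each was hybridised against pooled RNA of Neo1 and Neo2, which carried the pBabe-neo virus alone. Sir2KD2 (4 arrays) and Sir2KD1 (3 arrays) carried mU6pro vectors for small interfering RNAs of 2 sequences against Sirt1 together with a neomycin resistance plasmid, and each was hybridised against the single control line mU6pro. G418 was used at 280 µg/ml for the overexpressing lines and at 400 µg/ml for the knockdown lines. The labels do not say whether the lines are clones, and they do not describe the arrays of a line as separate cultures, so p-values cover array-to-array spread, which may be purely technical. In a ratio against control, variation among control lines is not measured.

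The values are log2 ratios of the array channels. They were turned so that the modified line stood in channel 2 on every array, and plus and minus name the sides of that turned ratio. No source used here states which channel is on top, so a plus value cannot be read as more or as less RNA in the modified line, and the turn itself is an assumption. As deposited, arrays of the same line in opposite channels correlated at a mean r of -0.281 over all probes (12 pairs, -0.414 to -0.0986), and those in the same channel at 0.125 (6 pairs). Arrays of the other line of the same kind in opposite channels were at -0.237 (12 pairs, -0.393 to -0.0287), a range that overlaps with the first. The turn follows the first of these signs, but centring per probe also lowers correlations among arrays of a kind. A member was called where its adjusted p was under 0.05. Taken as deposited, without the turn, no member was called in any line or contrast. The Sirt1 probe did not settle the direction. Its log2 ratio was -0.33 ± 0.10 in Sir2OE2 (SE, n = 4 arrays), 0.08 ± 0.12 in Sir2OE1 (n = 3), 0.13 ± 0.10 in Sir2KD2 (n = 4) and -0.10 ± 0.12 in Sir2KD1 (n = 3), with limma adjusted p-values of 0.131, 0.933, 0.651 and 0.772 in that order. In each line but Sir2OE2 the 95% interval included 0, and neither difference between lines of a kind was called (limma adjusted p = 0.504 and 0.637), so most of these sides are within their error.

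Cholesterol is built from acetyl-CoA through mevalonate and farnesyl diphosphate to squalene, lanosterol and then a series of sterol intermediates. Fatty acids are made from the same acetyl-CoA by carboxylation, chain assembly and desaturation. Sterol regulatory element binding proteins drive transcription of both branches, SREBP-2 mainly the sterol genes and SREBP-1c mainly the fatty acid genes. INSIG proteins hold their precursors in the endoplasmic reticulum when sterols are plentiful. SREBPs are weak activators alone and act at promoters together with NF-Y, which binds the CCAAT box, and Sp1, which binds GC-rich boxes.

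Promoters are shown for Msmo1, on which the results turn, for 3 sterol enzymes that lay on the same side as Msmo1 in all 4 lines, and for Ebp, which did not. Each window runs from 250 bases before to 50 bases after the transcription start in RefSeq (assembly GRCm38.p6), written 5′ to 3′ on the gene's own strand, with CCAAT or its reverse complement ATTGG in capitals. Msmo1 lies at chr8:64733529-64733828 (minus strand), Idi1 at chr13:8885356-8885655 (plus strand), Cyp51 at chr5:4104648-4104947 (minus strand), Lss at chr10:76531355-76531654 (plus strand) and Ebp at chrX:8193463-8193762 (minus strand).
Msmo1: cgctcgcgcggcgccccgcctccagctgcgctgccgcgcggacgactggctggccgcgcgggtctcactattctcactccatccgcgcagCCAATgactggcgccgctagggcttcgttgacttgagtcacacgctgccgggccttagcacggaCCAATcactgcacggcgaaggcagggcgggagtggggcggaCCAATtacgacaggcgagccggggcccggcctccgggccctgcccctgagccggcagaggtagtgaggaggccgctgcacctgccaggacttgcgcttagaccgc
Idi1: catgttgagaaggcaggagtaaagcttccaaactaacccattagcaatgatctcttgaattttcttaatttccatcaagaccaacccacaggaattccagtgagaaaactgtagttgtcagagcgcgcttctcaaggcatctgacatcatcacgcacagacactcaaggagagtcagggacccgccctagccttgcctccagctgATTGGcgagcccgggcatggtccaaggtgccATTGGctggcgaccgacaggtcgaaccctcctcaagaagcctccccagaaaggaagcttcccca
Cyp51: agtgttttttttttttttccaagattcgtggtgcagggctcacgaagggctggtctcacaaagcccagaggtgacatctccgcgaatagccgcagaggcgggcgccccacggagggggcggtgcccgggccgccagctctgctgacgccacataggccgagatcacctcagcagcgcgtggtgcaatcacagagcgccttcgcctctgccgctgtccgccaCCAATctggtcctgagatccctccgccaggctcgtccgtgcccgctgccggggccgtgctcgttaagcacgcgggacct
Lss: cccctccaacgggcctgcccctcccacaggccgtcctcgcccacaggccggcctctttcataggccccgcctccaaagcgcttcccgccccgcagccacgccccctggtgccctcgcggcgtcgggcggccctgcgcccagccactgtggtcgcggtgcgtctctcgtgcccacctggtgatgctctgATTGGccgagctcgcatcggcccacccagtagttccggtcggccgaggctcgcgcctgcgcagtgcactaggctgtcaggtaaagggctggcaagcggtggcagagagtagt
Ebp: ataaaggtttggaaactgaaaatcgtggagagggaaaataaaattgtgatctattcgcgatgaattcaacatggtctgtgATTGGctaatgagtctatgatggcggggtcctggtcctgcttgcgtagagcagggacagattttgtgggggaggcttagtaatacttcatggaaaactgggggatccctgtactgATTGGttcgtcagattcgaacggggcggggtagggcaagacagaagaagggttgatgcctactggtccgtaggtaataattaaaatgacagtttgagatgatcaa
Of the 30 members, 23 had a promoter entry. CCAAT, on either strand, was in a promoter of 21 of these 23 genes (91.3%), against 41.1% of all 27025 genes, and in all 13 sterol enzymes with an entry. GGGCGG was in 20 of 23 (87.0%), against 38.2% of all genes. A gene was counted where any of its windows held the letters, and some genes had several windows. Counted by window, CCAAT was in 22 of 32 (68.75%), against 37.4% of all 32851 windows, and in 13 of 16 of the sterol enzymes (81.25%). By window GGGCGG was in 23 of 32 (71.9%), against 35.7% of all. The E-box CACGTG was in 4 of 23 (17.4%), those of Dhcr7, Hsd17b7, Insig1 and Sc5d, against 8.09% of all genes. The sterol regulatory element TCACNCCAC was in none of the 23, against 1.44% of all genes, which says only that these letters were not in these windows. Among the windows shown, Msmo1 held 3 CCAAT boxes, Idi1 and Ebp 2 each, and Cyp51 and Lss 1 each, so that Ebp carried the box as well.

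Msmo1, the methylsterol monooxygenase that starts removal of the C4 methyl groups, was the only member called in a line of each kind and the only member called between lines of a kind. Its turned log2 ratios were -0.34, -0.29, -0.29 and -0.14 on the Sir2OE2 arrays, against 0.94, 1.19 and 0.74 on the Sir2OE1 arrays. They were 0.64, 0.43, 0.53 and 0.62 on the Sir2KD2 arrays, against -0.42, -0.61 and -0.50 on the Sir2KD1 arrays. No array of a line overlapped with an array of the other line of its kind. The fitted ratio was -0.26 ± 0.10 in Sir2OE2 (SE, n = 4, limma adjusted p = 0.298) and 0.95 ± 0.12 in Sir2OE1 (n = 3, adjusted p = 0.00456), a fold of 1.93 on the plus side for Sir2OE1. It was 0.55 ± 0.10 in Sir2KD2 (n = 4, limma adjusted p = 0.0287) and -0.50 ± 0.12 in Sir2KD1 (n = 3, adjusted p = 0.051).

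The lines of a kind were compared directly, which takes the shared control RNA out of the difference. Sir2OE2 minus Sir2OE1 was -1.21 for Msmo1 (95% interval -1.56 to -0.86, limma adjusted p = 0.0105), a 2.31-fold gap. Sir2KD2 minus Sir2KD1 was 1.05 (95% interval 0.70 to 1.41, limma adjusted p = 0.0161), a 2.08-fold gap. These contrasts share neither arrays nor control RNA. Msmo1 was the only member called in either: 1 of 33 against 0.323% of all probes for the overexpressing lines, and 1 of 33 against 0.689% of all probes for the knockdown lines. At an unadjusted p under 0.05 there were 7 of 33 members (21.2%) in the overexpression contrast and 11 of 33 (33.3%) in the knockdown contrast, against 7.48% and 11.8% of all probes. With the arrays of each kind fitted alone no member was called, and limma adjusted p for Msmo1 was 0.103 for Sir2OE2 minus Sir2OE1, 0.0596 in Sir2OE1, 0.166 for Sir2KD2 minus Sir2KD1 and 0.146 in Sir2KD2. With each array left out in turn, Msmo1 was called in 14 of 14 fits in Sir2OE1, in 11 for Sir2OE2 minus Sir2OE1, in 7 in Sir2KD2 and in 9 for Sir2KD2 minus Sir2KD1. Leaving out an array of the other kind cannot change the ratio of a line, only the estimate of the spread.

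**Figure D1:**
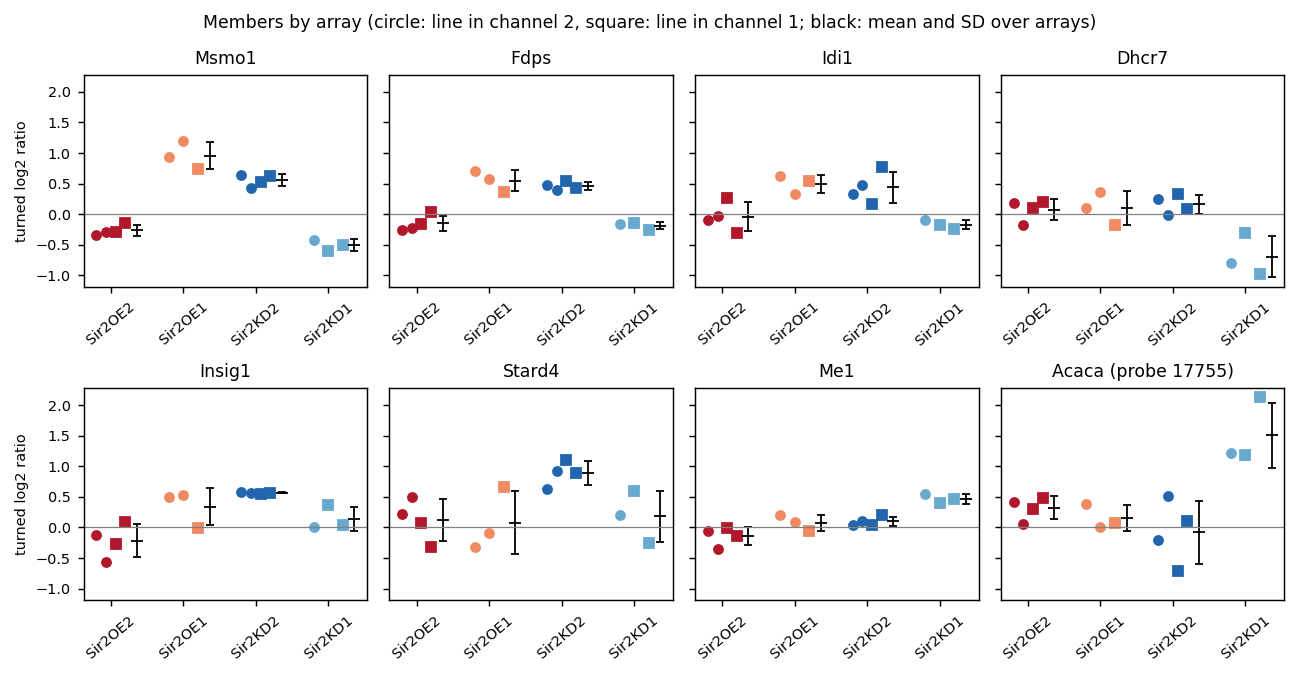
Turned log2 ratio of 8 member probes on each array, with Sir2OE2, Sir2OE1, Sir2KD2 and Sir2KD1 from left to right. Circles mark arrays with the modified line in channel 2, squares those with it in channel 1, and black bars give the mean and SD over arrays. Msmo1 separates the lines of each kind, while the Acaca probe stands high only on the 3 Sir2KD1 arrays, at 1.18 to 2.13.

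No mevalonate enzyme was called. The pair nearest to farnesyl diphosphate had the same order of lines as Msmo1, but this order was not particular to the pair. Of the 5 mevalonate probes, 0 were plus for Sir2OE2 minus Sir2OE1 and 4 for Sir2KD2 minus Sir2KD1, against 49.3% and 47.3% of all probes. Fdps, which makes farnesyl diphosphate, had log2 ratios of -0.25, -0.22, -0.16 and 0.03 on the Sir2OE2 arrays, against 0.71, 0.57 and 0.36 on the Sir2OE1 arrays. Its values were 0.48, 0.40, 0.55 and 0.42 on the Sir2KD2 arrays, against -0.16, -0.15 and -0.26 on the Sir2KD1 arrays. The groups did not overlap within either kind, and the nearest to the threshold were Sir2KD2 at 0.46 ± 0.10 (limma adjusted p = 0.0541) and Sir2OE1 at 0.55 ± 0.12 (adjusted p = 0.0615). Idi1, the isopentenyl diphosphate isomerase, read -0.10, -0.03, 0.26 and -0.31 on the Sir2OE2 arrays, against 0.62, 0.33 and 0.54 on the Sir2OE1 arrays. It read 0.33, 0.48, 0.17 and 0.78 on the Sir2KD2 arrays, against -0.10, -0.17 and -0.24 on the Sir2KD1 arrays, again without overlap within a kind. The fitted values of Idi1 were -0.04 ± 0.13 in Sir2OE2, 0.50 ± 0.15 in Sir2OE1, 0.44 ± 0.13 in Sir2KD2 and -0.17 ± 0.15 in Sir2KD1 (fitted log2 ratio and SE). Mvk, the mevalonate kinase, lay on the plus side in all 4 lines, at 0.32, 0.46, 0.24 and 0.14 in the same order. Pmvk, the next kinase, lay on the Msmo1 side in all 4 lines but stayed between -0.19 and 0.11. Mvd, the decarboxylase, ran from -0.39 in Sir2KD2 to 0.36 in Sir2OE1.

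Among the 11 enzymes from squalene to cholesterol, Fdft1 (squalene synthase), Cyp51 (lanosterol demethylase, fitted ratios -0.13, 0.31, 0.27 and -0.23 in Sir2OE2, Sir2OE1, Sir2KD2 and Sir2KD1) and Lss (lanosterol synthase) lay on the Msmo1 side in all 4 lines. Fdft1 had fitted ratios of -0.03 ± 0.13 in Sir2OE2, 0.41 ± 0.16 in Sir2OE1, 0.28 ± 0.13 in Sir2KD2 and -0.33 ± 0.16 in Sir2KD1. Lss in Sir2KD2 was at 0.02 ± 0.16, so that its side there is within its error. Dhcr7, which makes cholesterol from 7-dehydrocholesterol, was called in Sir2KD1 alone. It read 0.24, -0.01, 0.33 and 0.08 on the Sir2KD2 arrays, all above the Sir2KD1 arrays at -0.79, -0.31 and -0.97. The fitted Sir2KD1 ratio was -0.71 ± 0.16 (n = 3, limma adjusted p = 0.0395). The call was kept in 4 of the 14 fits that left out 1 array each, and adjusted p was 0.147 with the knockdown arrays fitted alone. Dhcr7 read 0.18, -0.18, 0.10 and 0.19 in Sir2OE2, against 0.11, 0.37 and -0.18 in Sir2OE1. Sir2KD2 minus Sir2KD1 was 0.87 ± 0.21 (limma adjusted p = 0.118). Ebp, the sterol isomerase, picked out after its values were seen, had wide spread in the knockdown arrays, with 0.07, -0.51, -1.70 and -0.40 in Sir2KD2, against -0.13, 0.56 and 1.53 in Sir2KD1, and was not called. Hsd17b7 and Sc5d, which act late in the pathway, were highest in Sir2KD2, at 0.56 and 0.37. Sqle, Nsdhl and Tm7sf2 stayed between -0.33 and 0.28 in every line.

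Taken by side alone, the 16 sterol enzyme probes were on the plus side in 4 cases in Sir2OE2, against 15 in Sir2OE1, and in 13 in Sir2KD2, against 5 in Sir2KD1. Of all probes, 49.4%, 49.7%, 49.6% and 53.2% were on the plus side in these lines. The median log2 ratio of the 16 was -0.06 in Sir2OE2, 0.30 in Sir2OE1, 0.20 in Sir2KD2 and -0.17 in Sir2KD1. Array by array the median of the 16 ran from -0.13 to -0.03 in Sir2OE2, against 0.27 to 0.35 in Sir2OE1, and from 0.11 to 0.23 in Sir2KD2, against -0.26 to 0.01 in Sir2KD1. Between lines of a kind, 13 of the 16 (81.25%) had a minus difference for Sir2OE2 minus Sir2OE1 together with a plus difference for Sir2KD2 minus Sir2KD1, against 24.7% of all probes. Of all probes, 49.3% were on the plus side for Sir2OE2 minus Sir2OE1 and 47.3% for Sir2KD2 minus Sir2KD1, against 2 and 14 of the 16. This combination is the one that Msmo1 showed, Msmo1 is among the 13, and the count was not a planned test. These are counts of direction, not calls, since of the 16 only Msmo1 was called in either contrast. As deposited, without the turn, 14 of the 16 were on the plus side in Sir2OE1 and 2 for Sir2OE2 minus Sir2OE1, close to the turned counts, but 7 in Sir2OE2, 7 in Sir2KD2, 8 in Sir2KD1 and 8 for Sir2KD2 minus Sir2KD1. Sir2OE2 and Sir2KD2 had 2 arrays in each channel, so a change that differs in sign between channels cancels there when the values are not turned. In Sir2KD1 most arrays had the line in channel 1, so such a change tends to take the other sign there. In Sir2OE1 most arrays had the line in channel 2 and were not turned, so its counts stay close by layout. The Sir2OE1 median of the 16 was 0.15 as deposited, against 0.30 turned. Since Sir2OE2 cancels, Sir2OE2 minus Sir2OE1 as deposited mainly repeats Sir2OE1, and these counts do not test the turn. The 11 fatty acid probes had that combination of differences in 3 cases and the 6 regulator and transport probes in 2.

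**Figure D2:**
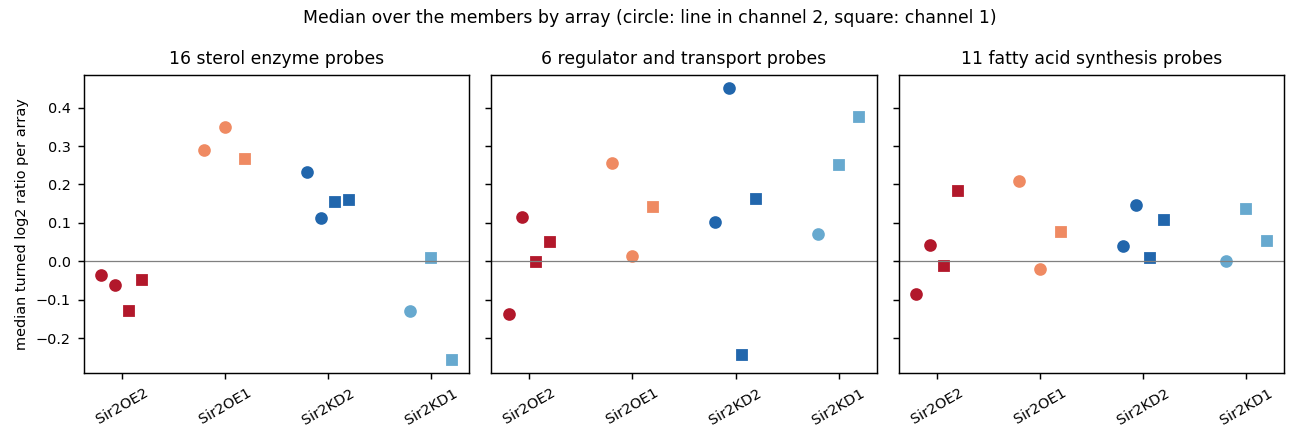
Median turned log2 ratio per array over the 16 sterol enzyme probes, the 6 regulator and transport probes and the 11 fatty acid probes. In the left panel the lines of each kind do not overlap, at -0.13 to -0.03 in Sir2OE2 against 0.27 to 0.35 in Sir2OE1, while in the other panels they do.

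**Figure D3:**
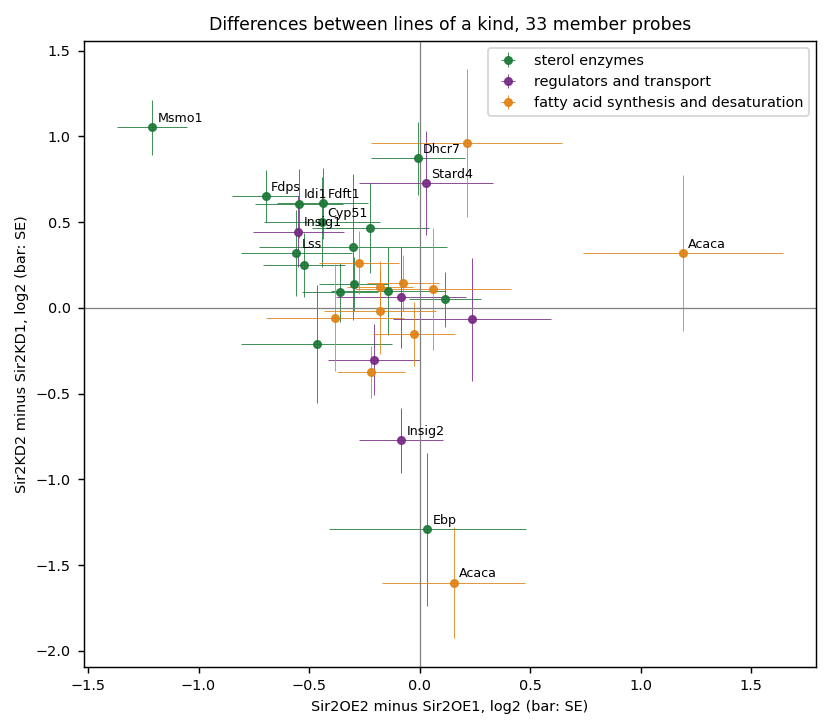
Difference between lines for each of the 33 member probes, Sir2OE2 minus Sir2OE1 on the horizontal axis and Sir2KD2 minus Sir2KD1 on the vertical axis, both log2, with bars of 1 SE. Of 16 sterol enzymes (green), 13 lie left of 0 and above 0, with Msmo1 farthest out at -1.21 and 1.05.

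Likeness to Msmo1 was measured as Pearson's r over the 14 arrays, which fall into 4 lines and share control RNA, so it is a description. Fdps was the most alike at r = 0.954, followed by Fdft1 (0.808), Idi1 (0.800) and Tm7sf2 (0.777). The median over the other 15 sterol enzymes was 0.592, against -0.05 over the 11 fatty acid probes and -0.02 over all probes. Over all probes r ran from -0.974 to 0.967, so that values as high as that of Fdps occurred outside the members. With the line means taken out, the median over the 15 was 0.088, so that the likeness of the list lay mainly between lines. Single genes differed in this, from -0.544 for Nsdhl to 0.769 for Sqle, with Fdps at 0.523. The fitted values of the Sirt1 probe had the signs of Msmo1 in all 4 lines, though in 3 of them within the error of Sirt1, with r = 0.69 over the same 14 arrays.

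No regulator or carrier was called. Insig1, itself a sterol-responsive gene, had 0.59, 0.57, 0.55 and 0.57 on the Sir2KD2 arrays, against 0.01, 0.36 and 0.04 on the Sir2KD1 arrays. The Sir2KD2 ratio was 0.57 ± 0.13 (n = 4, limma adjusted p = 0.0768). In the overexpressing lines it was -0.22 ± 0.13 in Sir2OE2 and 0.33 ± 0.16 in Sir2OE1. Its overexpression arrays read -0.13, -0.56, -0.27 and 0.09 in Sir2OE2, against 0.50, 0.53 and -0.01 in Sir2OE1. Insig2, its relative, had the opposite order in the knockdown lines: -0.14, -0.49, -0.36 and -0.12 on the Sir2KD2 arrays, against 0.55, 0.55 and 0.39 on the Sir2KD1 arrays. The Insig2 fit gave -0.28 ± 0.12 in Sir2KD2 and 0.50 ± 0.15 in Sir2KD1, a difference of -0.77 (limma adjusted p = 0.119). On the overexpression arrays Insig2 read -0.14, 0.33, 0.24 and 0.30 in Sir2OE2, against 0.52, 0.08 and 0.18 in Sir2OE1. Srebf1, the gene of SREBP-1, lay between -0.13 and 0.15 and the 2 probes of Srebf2 between -0.11 and 0.25, none called. Stard4, a soluble sterol carrier, had 0.63, 0.92, 1.10 and 0.90 on the Sir2KD2 arrays, against 0.20, 0.60 and -0.25 on the Sir2KD1 arrays, and missed the threshold in Sir2KD2 at 0.89 ± 0.20 (limma adjusted p = 0.0588). Stard4 overlapped between the overexpressing lines, with 0.22, 0.51, 0.07 and -0.33 in Sir2OE2, against -0.32, -0.09 and 0.66 in Sir2OE1.

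As a list, the fatty acid genes had no shared order of lines. Of the 11 probes, that of Fads2, a fatty acid desaturase, alone lay on the Msmo1 side in all 4 lines. Its r with Msmo1 over the 14 arrays was 0.691, slightly above Cyp51 (0.673) and Lss (0.670). Gpam was at 0.660, on the Msmo1 side in 3 lines, and the lowest r of the list was -0.630, for Acaca probe 17755. Of the 3 probes of Acaca, the acetyl-CoA carboxylase that commits carbon to fatty acids, only probe 17755 was called, and only in Sir2KD1. It read -0.21, 0.51, -0.72 and 0.11 on the Sir2KD2 arrays, against 1.22, 1.18 and 2.13 on the Sir2KD1 arrays, without overlap. The fitted Sir2KD1 ratio was 1.52 ± 0.25 (n = 3, limma adjusted p = 0.00741), a fold of 2.88. It was called in all 14 fits that left out 1 array each, but not with the knockdown arrays fitted alone (limma adjusted p = 0.105). On the overexpression arrays the probe read 0.42, 0.06, 0.31 and 0.49 in Sir2OE2, against 0.39, 0.00 and 0.08 in Sir2OE1. The other probes of the gene read 0.17 ± 0.24 and -0.55 ± 0.35 in Sir2KD1, so the probes disagree and the gene as a whole cannot be given a side. Me1, the malic enzyme that supplies NADPH, read 0.04, 0.11, 0.04 and 0.21 in Sir2KD2, against 0.55, 0.40 and 0.46 in Sir2KD1. Its fitted ratio was 0.10 ± 0.10 in Sir2KD2 and 0.47 ± 0.12 in Sir2KD1 (limma adjusted p = 0.738 and 0.0568). The Me1 arrays read -0.06, -0.35, -0.01 and -0.14 in Sir2OE2, against 0.20, 0.09 and -0.06 in Sir2OE1. Scd1, a stearoyl-CoA desaturase, lay on the plus side on all 7 knockdown arrays, at 0.64 ± 0.23 in Sir2KD2 (limma adjusted p = 0.245) and 0.53 ± 0.27 in Sir2KD1 (adjusted p = 0.369). Its arrays read 0.56, 0.70, 0.71 and 0.59 in Sir2KD2 and 0.64, 0.30 and 0.61 in Sir2KD1, with -0.14, 0.31, 0.15 and 0.71 in Sir2OE2, against 0.97, -0.80 and 0.28 in Sir2OE1. Fasn, the fatty acid synthase, picked out after its values were seen, read -0.81 in Sir2KD1, with arrays from -1.70 to -0.36, and was not called. Fads1, Fads2, Gpam and Scd2 stayed between -0.17 and 0.22 in every line. Acly, the citrate lyase that makes acetyl-CoA, carried the same ratio as many other probes on most arrays (shared by 329 probes for overexpression and by 177 for knockdown), so its value may not be its own.

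**Figure D4:**
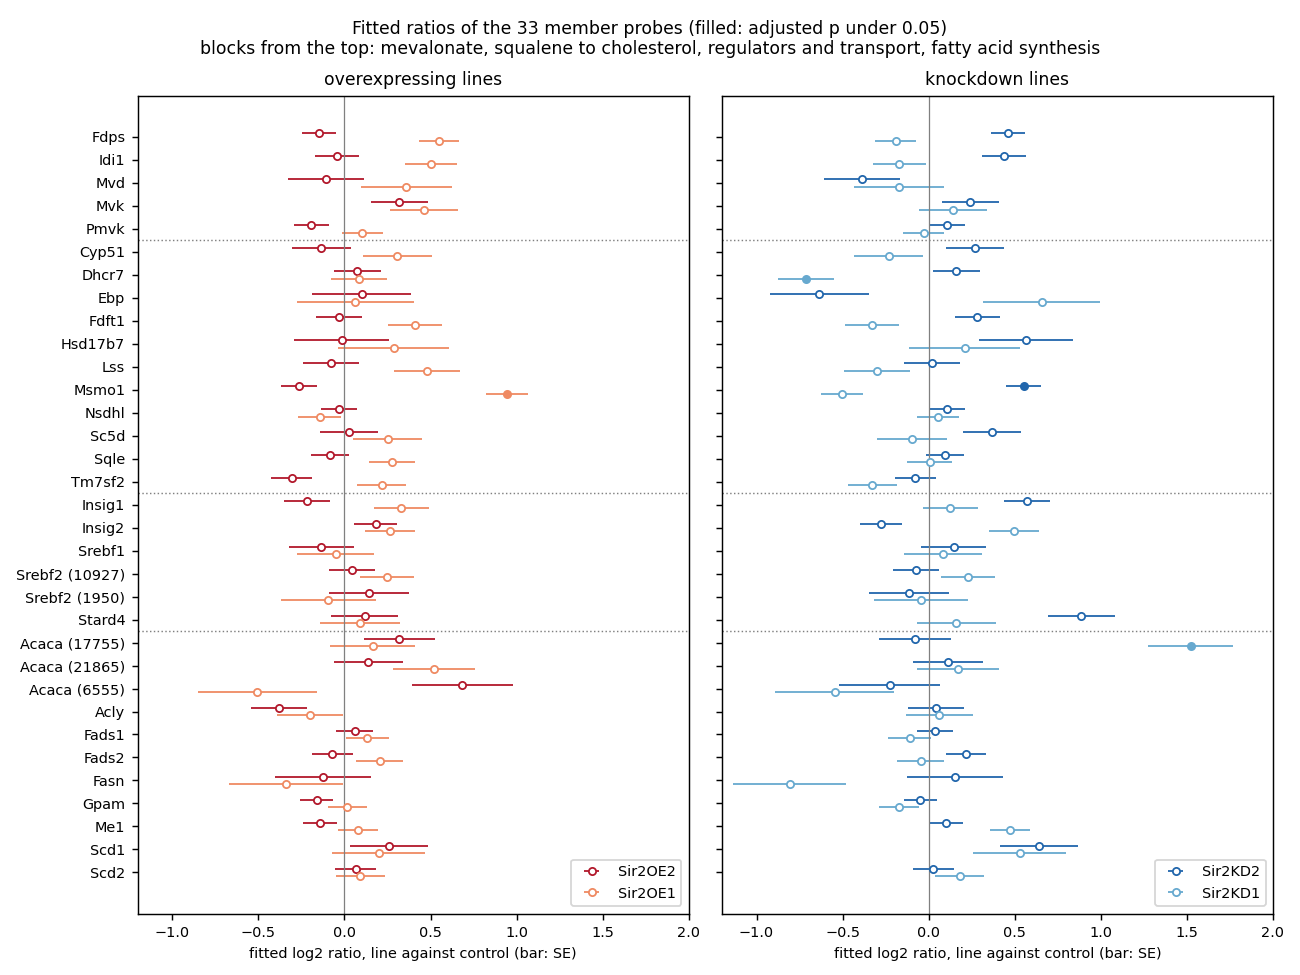
Fitted log2 ratio of the 33 member probes, with bars of 1 SE, for the overexpressing lines (left; Sir2OE2 and Sir2OE1) and the knockdown lines (right; Sir2KD2 and Sir2KD1). Filled points passed the test at adjusted p under 0.05: Msmo1 in Sir2OE1 and Sir2KD2, Dhcr7 and Acaca probe 17755 in Sir2KD1.

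By line, limma called no member in Sir2OE2 (2.81% of all probes), 1 in Sir2OE1 (1.06%), 1 in Sir2KD2 (1.34%) and 2 in Sir2KD1 (3.59%). In all, 3 of 33 probes (9.09%) were called in at least 1 line, against 6.4% of all probes. At an unadjusted p under 0.05 the members were 4, 6, 7 and 7 of 33 in that order (12.1%, 18.2%, 21.2% and 21.2%), against 13.2%, 9.61%, 13.4% and 16.8% of all probes. None was called in both lines of a kind, against 0.551% of all probes called on the same side by Sir2OE2 and Sir2OE1 and 0.659% by Sir2KD2 and Sir2KD1. Overexpression minus knockdown called no member (2.66% of all probes), and 3 had an unadjusted p under 0.05 (14.4% of all probes). Vector, control RNA and G418 dose differ between the kinds and do not cancel, so they cannot be told apart from Sirt1 in this difference. For Msmo1 this difference was 0.32 ± 0.11 (limma adjusted p = 0.215). With each line as 1 replicate, limma called no probe in any of the 3 comparisons, and the unadjusted p was under 0.05 for 1, 1 and 0 members, against 6.99%, 10.2% and 7.84% of all probes.

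In the wider pathways, taken from lists of neighbouring steps, 4 further sterol synthesis and isoprenoid genes were measured and none was called. Of 16 genes of sterol uptake, efflux and storage, Abca1, the cholesterol exporter, was at -0.98 ± 0.18 in Sir2OE2 (limma adjusted p = 0.0133) and Lipa, the lysosomal lipase, at 1.61 ± 0.28 in Sir2KD1 (adjusted p = 0.0119), where Stard5, a sterol-binding transfer protein, was at -0.96 (adjusted p = 0.0268). Of 8 genes in a list named for SREBP processing, a name that does not give the role of each gene, Pgrmc1 alone was called. It was at 0.46 ± 0.10 in Sir2OE2 (limma adjusted p = 0.0289) and -0.65 ± 0.12 in Sir2KD1 (adjusted p = 0.0124). Among the 25 probes of elongation and carbon supply, Hacd1, a dehydratase of chain elongation, was lowest at -1.30 ± 0.17 in Sir2KD1 (limma adjusted p = 0.0019). The elongase Elovl4 was called in Sir2KD1 (-0.96), and the elongase Elovl7 in Sir2OE2 (-0.76). Of the 23 probes of glycerolipid synthesis, Cds2 (-0.75), a CDP-diacylglycerol synthase, and Dgat2 (-1.06), which makes triglyceride, were called in Sir2KD1 and Lpin3 (-1.13), a phosphatidate phosphatase, in Sir2KD2. Per line these lists had 3 calls in Sir2OE2, 0 in Sir2OE1, 1 in Sir2KD2 and 7 in Sir2KD1, where 2.81%, 1.06%, 1.34% and 3.59% of all probes were called. Overexpression minus knockdown called 7 genes of these lists, against 2.66% of all probes: Hacd1 (1.45), Elovl4 (1.41), Stard5 (1.04), Pgrmc1 (0.89), Cds2 (0.81), Thrsp (0.80) and Lipa (-1.50). As the kinds also differ in vector, control RNA and G418 dose, these differences cannot be credited to Sirt1.

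Beta cell markers were read by 15 probes of 14 genes, as ratios only, so the level of insulin-cell genes cannot be checked. Of these, 3 were called in Sir2OE2 (1 plus, 2 minus), 3 in Sir2OE1 (2 plus, 1 minus), 3 in Sir2KD2 (1 plus, 2 minus) and 5 in Sir2KD1 (all minus), where 2.81%, 1.06%, 1.34% and 3.59% of all probes were called. In the contrasts 1 was called plus for Sir2KD2 minus Sir2KD1 and 3 plus for overexpression minus knockdown, against 0.689% and 2.66% of all probes. Slc2a2, the beta-cell glucose transporter, was called on the minus side in all 4 lines. For Sir2OE2 minus Sir2OE1, 2 of the 15 marker probes were on the plus side with a median of -0.20, and for Sir2KD2 minus Sir2KD1 8 were, with a median of 0.01. Of the 8 exocrine and duct markers, Krt19 and Krt7 were called. There was 1 call in each line, minus in Sir2OE2 and Sir2OE1 and plus in Sir2KD2 and Sir2KD1. For overexpression minus knockdown 2 were called, both minus, beside the shares of all probes given above. Of the 8 fibroblast and immune markers and the 7 markers of other islet cells none was called in any line or contrast. By side, 7 of the 7 markers of other islet cells were plus for Sir2KD2 minus Sir2KD1 (median 0.14, against 47.3% of all probes), the same side as most sterol enzymes, and 4 of 7 were plus for Sir2OE2 minus Sir2OE1 (median 0.11). The fibroblast and immune markers were plus in 5 of 8 and 4 of 8 cases for the same contrasts, and the exocrine and duct markers in 2 of 8 and 5 of 8. The part of these markers in the sterol results was not tested.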

How the data were processed

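RNA was hybridised to 14 two-colour arrays of 4 lines, 3 or 4 arrays a line. The deposited values are log2 ratios of the channels, as the values show: differences between arrays give ratios of whole numbers in base 2. Within each kind of line the values of a probe sum to 0 over 6 of 7 arrays, so the authors centred them per probe. Array software, background correction, normalization and numerator: not given in the sources used here. With no intensities, precision is limited by how many arrays there are.

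Arrays with the modified line in channel 1 had their sign turned. The model in limma 3.58.1 (R 4.3.3; lmFit and eBayes) held 1 coefficient for each line and 1 dye term for each kind across the 14 arrays. Benjamini-Hochberg adjustment ran over the 23230 probes measured at least 2 times in each line, with a threshold of 0.05. The fit was tested on simulated data. Of 23232 probes, 16885 had 1 symbol, 143 several and 6204 none listed, and 16205 symbols were updated through Entrez identifiers (GRCm38.p6, names only). All members are reported, with array values for called members and those with the 10 smallest unadjusted p-values. Members and lists were chosen with earlier results of these data known. Alternatives covered the dye term, the turn, scaling, filters, slide number and each array left out.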

Additional observations from a re-analysis of the deposited data

Results flagged for a closer look

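Msmo1 differed between lines of the same kind, by the fitted contrast itself: Sir2OE2 minus Sir2OE1 was -1.21 (limma adjusted p = 0.0105) and Sir2KD2 minus Sir2KD1 was 1.05 (adjusted p = 0.0161), with 4 of 4 and 3 of 3 arrays of each pair of lines on opposite sides of 0. The Acly probe had 1 Sir2OE2 array far from the others, at -0.96 on slide 4, against -0.20 to -0.16 on the other 3. This was 1 of 66 groups of 4 arrays checked (1.52%), where chance gives about 5%. On most overexpression arrays the Acly probe carried a ratio shared by 329 probes, so the flagged value may not be its own.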

How the results depend on the processing

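Leaving out each array in turn, the member calls ranged from 0 to 0 in Sir2OE2, 1 to 1 in Sir2OE1, 0 to 4 in Sir2KD2, 1 to 4 in Sir2KD1, 0 to 1 for Sir2OE2 minus Sir2OE1, 0 to 2 for Sir2KD2 minus Sir2KD1 and 0 to 0 for overexpression minus knockdown. Sterol enzymes on the plus side then ranged from 4 to 6 in Sir2OE2, 13 to 15 in Sir2OE1, 12 to 13 in Sir2KD2, 4 to 7 in Sir2KD1, 1 to 3 for Sir2OE2 minus Sir2OE1 and 12 to 15 for Sir2KD2 minus Sir2KD1. Msmo1 was called in Sir2OE1 in all 14 such fits and Acaca probe 17755 in Sir2KD1 in all 14. Msmo1 in Sir2KD2 was called in 7 and Dhcr7 in Sir2KD1 in 4. Fits without an array of the other kind keep the ratio of a line and change only the spread. Msmo1 for Sir2OE2 minus Sir2OE1 was lost without Sir2OE1 replicate 2 or Sir2OE2 replicate 1 or 2, and for Sir2KD2 minus Sir2KD1 without Sir2KD1 replicate 2 or 3 or Sir2KD2 replicate 1, 3 or 4.

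With 1 dye term for all arrays, calls were 2 in Sir2OE1, 4 in Sir2KD2, 4 in Sir2KD1, 2 for Sir2OE2 minus Sir2OE1 and 3 for Sir2KD2 minus Sir2KD1, and with no dye term 2, 4, 5, 2 and 5. Scale normalization gave 2 in Sir2OE1, 2 in Sir2KD2 and 1 in Sir2KD1. With arrays of the same kind only, all of these counts were 0. With the other channel on top in the knockdown arrays, overexpression minus knockdown called 1 member. Values taken as deposited, not turned, gave 0 calls in Sir2OE1, Sir2KD2, Sir2KD1 and both differences, put 14 sterol enzymes on the plus side in Sir2OE1 and 2 for Sir2OE2 minus Sir2OE1, against 7 in Sir2OE2, 7 in Sir2KD2, 8 in Sir2KD1 and 8 for Sir2KD2 minus Sir2KD1, and reversed Msmo1 in Sir2KD2 (-0.020) and for Sir2KD2 minus Sir2KD1 (-0.25), Dhcr7 in Sir2KD1 (0.16) and Acaca probe 17755 in Sir2KD1 (-0.70). Most Sir2KD1 arrays had the line in channel 1, so without the turn a change of similar size on its arrays takes the other sign. Sir2KD2 had as many arrays in each channel, so such a change cancels there. Most Sir2OE1 arrays had the line in channel 2 and were not turned, so its count and that of Sir2OE2 minus Sir2OE1 move little. Both these counts and the reversals follow from the layout of the channels and are not a separate test of the members. The counts of sterol enzymes by side were checked under alternatives chosen after seeing the data. Slide numbers are shared between lines only as numbers (mean residual correlation of same-numbered arrays -0.066 over 19 pairs), and with the slide number as a replicate block Sir2KD1 had 3 calls and the other counts did not move. Msmo1 in Sir2KD1 became called with the block, with each array's median subtracted, and with 1 dye term or none. Apart from the reversals without the turn, the cause of these changes was not tested. The direction of the ratio and the lack of intensities are the main limits, and the turn rests on correlations between arrays that centring also moves.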
